A study of Gallus gallus with 2 samples.

Results

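Apoptosis and cell death genes were examined in chick basilar papilla (BP) explants before and after the hair cells (HCs) were killed. The genes were a list of 40 symbols, comprising caspases, the BCL2 family, inhibitor of apoptosis proteins (IAPs) and their antagonists, the apoptosome, death receptor adaptors and regulators of p53. A gene was taken when its symbol in the deposited tables matched the list, and 39 of the 23842 genes in the tables did so. The symbol PERP was not among them. The list was drawn up by function and not from the measured change, but earlier results of these data were known when it was chosen.

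The BP is the auditory epithelium of birds and consists of HCs and supporting cells (SCs). RNA was sequenced from BP explants of male chicks at posthatch day 1. The SM0 library was made before streptomycin (SM) was added, an aminoglycoside that is toxic to HCs. The post-SM6 library was made from explants exposed to SM for 48 h and cultured for 6 h more without it, 54 h after the start. Each library was prepared from 50 pooled BPs that had been freed of surrounding tissue with thermolysin, and each time point had 1 library. There is therefore no replicate check, no test was run and no p-value is given. Effects of SM, of time in culture and of differences between pools cannot be told apart, because no explants cultured without SM for the same time were analysed here.

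Apoptosis is carried out by caspases, proteases that are made as inactive precursors and that cleave each other and many cellular proteins once activated. In the intrinsic route, members of the BCL2 family decide whether the outer mitochondrial membrane is opened, and cytochrome c that leaks out assembles APAF1 and CASP9 into the apoptosome. In the extrinsic route, death receptors such as FAS recruit FADD and CASP8 at the cell surface. Much of this regulation acts on proteins that are already present, so mRNA levels describe which components a tissue holds and not whether cells are dying. Aminoglycoside damage of HCs is known to engage the mitochondrial route and caspases.

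Expression was given as TPM, which scales reads to the length of each transcript and to the sum of the library, so that levels of different genes can be set side by side. Below, a pair of TPM values gives SM0 first and post-SM6 second. Log2 changes compare post-SM6 with SM0 after 0.1 was added to both values, so that changes at low TPM are understated. A gene was called higher or lower when it differed by at least 1.3-fold on this scale, a log2 change of 0.379, and had at least 1 TPM in either library. TPM does not keep the sequencing depth and read counts were not used here, so no counting error is given. Of the 39 members, 36 reached 1 TPM in either library. The members CASP18, BCL2A1 and BCL2L14 did not.

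The labelled cell types were checked first against marker genes. Of 26 HC markers with at least 1 TPM in either library, 25 were lower at post-SM6. The summed level of the 27 HC markers found was 3377 and 399 TPM, with no marker at 0 in either library. MYO7A, the myosin used to stain HCs, had 39.4 and 8.74 TPM, OTOF, the synaptic calcium sensor otoferlin, had 162 and 21.5 TPM, and OCM still had 88.4 of its 1966 TPM. SC markers were present in both libraries, and 10 of 19 were higher at post-SM6 and 3 lower, with a median log2 change of 0.43. Their summed levels were 5905 and 5909 TPM, of which TECTB had 3950 and 2802 TPM. GJB6, a connexin named after its values were seen, had 469 and 1292 TPM, and SOX2 was among the lower ones, with 146 and 77.2 TPM. In bulk RNA alone, fewer HCs and less RNA per HC cannot be told apart. By myosin VIIa staining, the study found virtually no HCs over a span that includes post-SM6. Other cells were present as well. Of 16 leukocyte and macrophage markers, 15 were higher at post-SM6, and the sum over the 19 found went from 117 to 309 TPM, with TIMD4 at 0 at SM0. CD3E, the most abundant at SM0, had 34.4 and 33.9 TPM, and CD74, the most abundant at post-SM6, had 30.5 and 91.4 TPM. CTSS, with 9.08 and 89.6 TPM, and the low PTPRC, with 0.83 and 1.22 TPM, were named after their values were seen. The 18 fibroblast markers were all higher, with sums of 188 and 721 TPM. Of 15 neuron and glia markers, 9 were lower and 1 was higher, and the sum over the 17 found was 952 and 648 TPM, with STMN2 at 0 at post-SM6.

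Of the 36 cell death genes tested, 6 were higher at post-SM6 (16.7%), beside 23.9% of the 13321 genes tested. Another 6 were lower (16.7%), beside 23.3% of all genes. Both shares were below those of all genes, a difference that was not tested. The median log2 change of the members was 0.016, and that of all genes was -0.025. The quartiles of the members were -0.25 and 0.26, and those of all genes -0.35 and 0.35. The higher members were BOK, PMAIP1, FAS, CASP1, BCL2L10 and FADD, and the lower ones were CASP10, MDM4, BAK1, BCL2L13, DFFB and BCL2L1. By a 2-fold criterion, BOK, PMAIP1 and FAS were higher (8.33% of members, beside 9.56% of all genes), and CASP10 and MDM4 were lower (5.56%, beside 7.83%). At 1.3-fold, 24 members were neither higher nor lower.

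**Figure D1:**
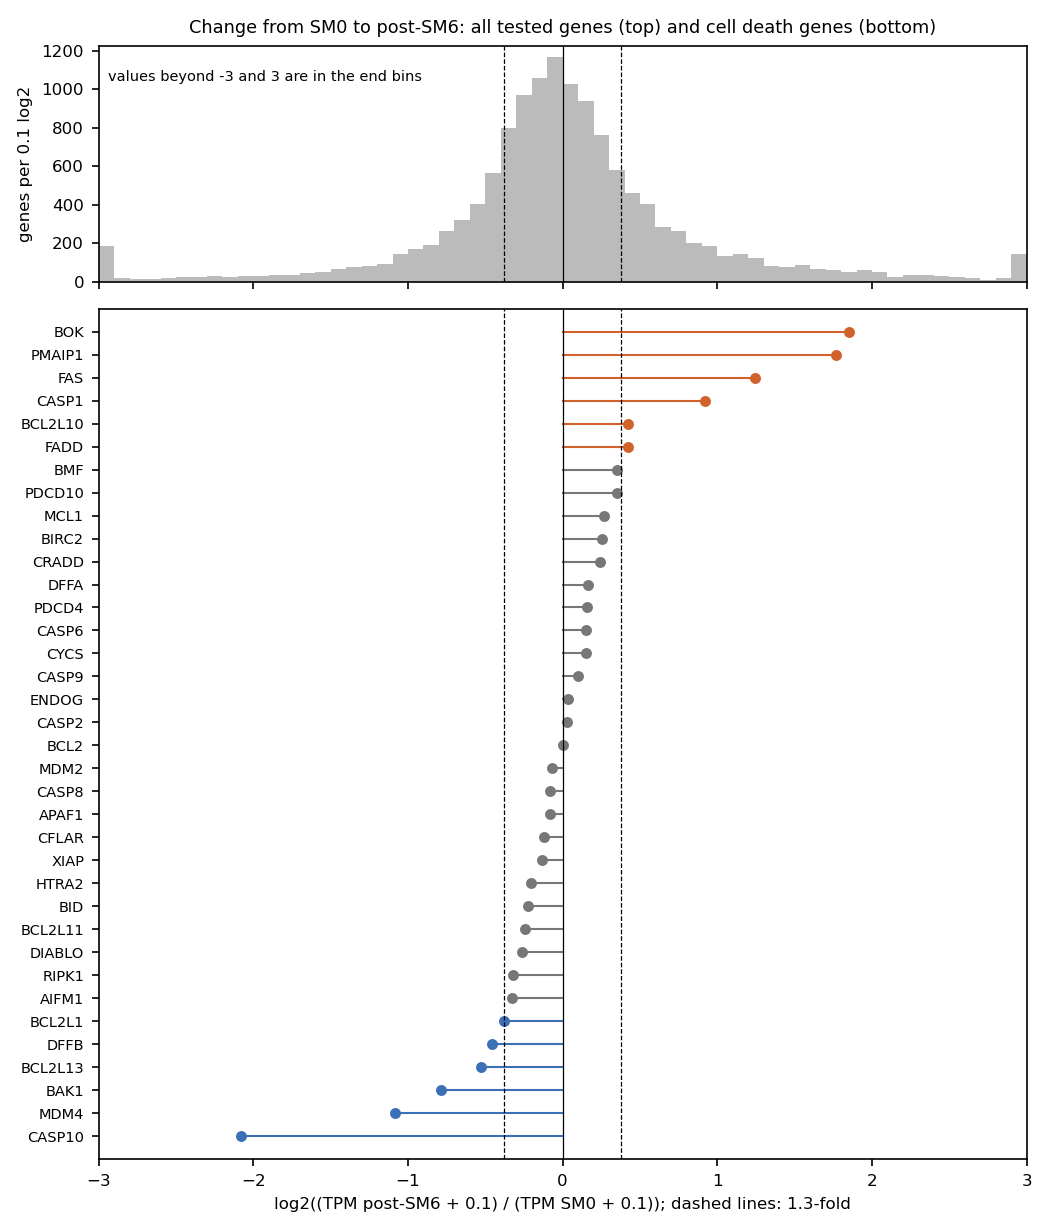
The top panel is a histogram of the log2 change of the 13321 genes tested, and the bottom panel shows the log2 change of the 36 cell death genes tested, in order of size, with dashed lines at 1.3-fold. Of these genes, 24 lie between the dashed lines, BOK stands at 1.85 and CASP10 at -2.08.

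The level of expression bears on these counts, because low genes scatter more. Among genes with a mean TPM under 5, 71.8% passed 1.3-fold in either direction, and all 3 members at that level did, namely CASP10, PMAIP1 and FAS. Among genes with a mean of at least 5 TPM, 39.4% passed, beside 9 of 33 members (27.3%). The borderline members were few. BCL2L1, at -0.38, lay just past the threshold, with BCL2L10 and FADD at 0.42 next inside it. BMF and PDCD10, at 0.35, lay just outside it. After TPM were scaled by the median ratio of abundant genes, BCL2L1 lost its call at -0.35, and BMF and PDCD10 gained calls at 0.38.

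**Figure D2:**
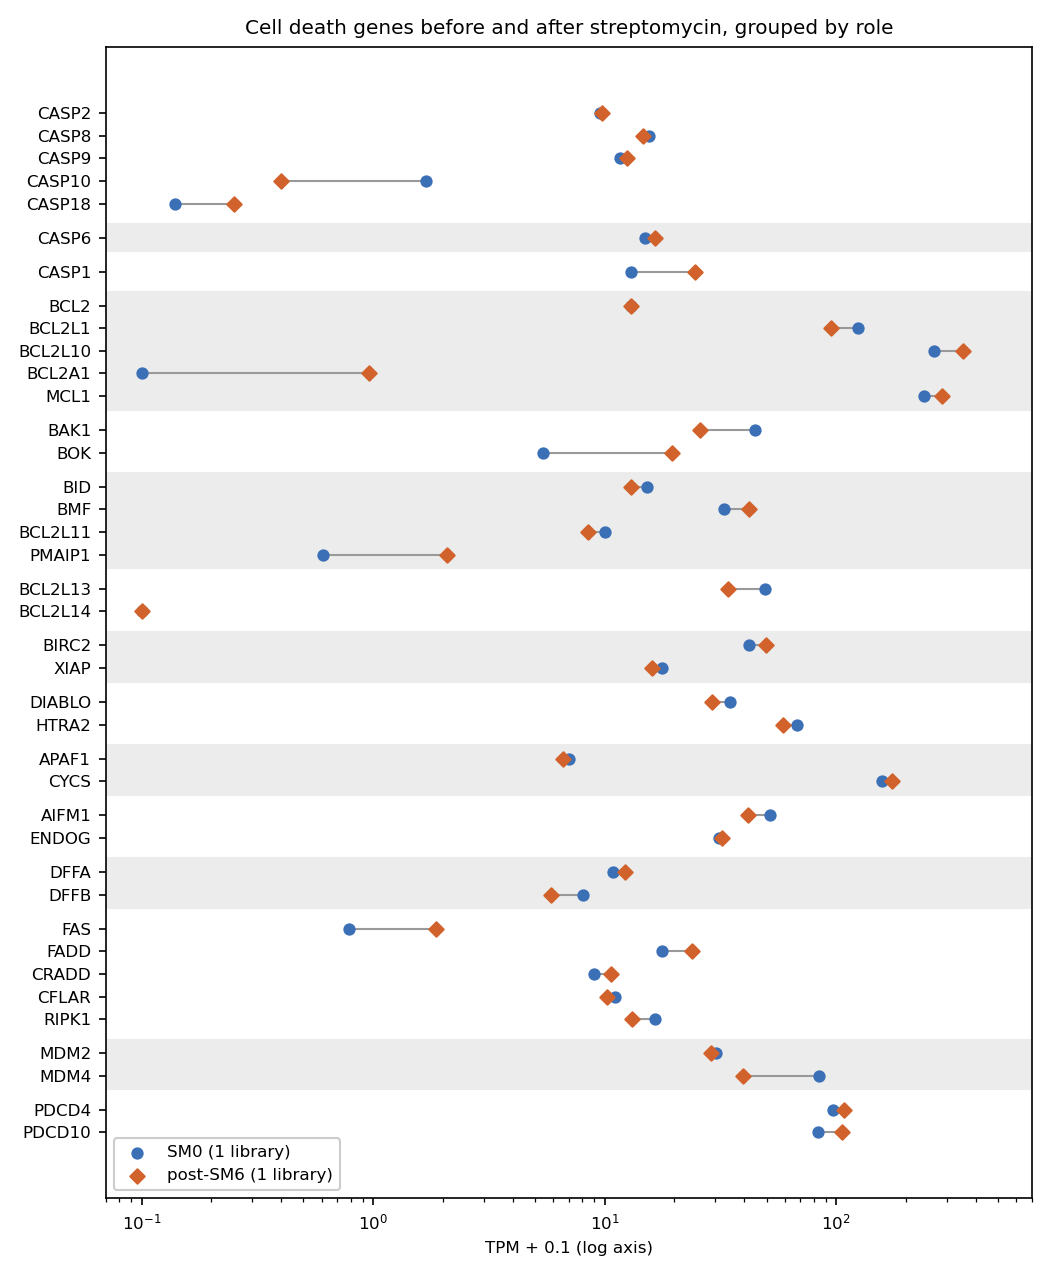
Levels of the 39 cell death genes as TPM + 0.1 on a log axis, with circles for SM0, diamonds for post-SM6 and shading that separates roles. For most genes the symbols lie close together, and the widest gaps among genes above 5 TPM are those of BOK (5.32 and 19.4 TPM) and MDM4 (83.7 and 39.5 TPM).

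Caspases that start or execute apoptosis were expressed at modest and similar levels in both libraries. CASP8, the initiator of the extrinsic route, had 15.4 and 14.6 TPM (log2 change -0.081). CASP9, the initiator that APAF1 activates, had 11.5 and 12.4 TPM (log2 change 0.097). CASP2, an initiator that answers to DNA damage and works with the adaptor CRADD, had 9.47 and 9.65 TPM (log2 change 0.027). These initiators thus differed by less than 1.3-fold. CASP6, an executioner, went from 14.8 to 16.4 TPM (log2 change 0.15).

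The caspases that stood apart were CASP1 and CASP10. CASP1, which matures inflammatory cytokines and belongs to pyroptosis rather than to apoptosis, had 12.8 and 24.3 TPM, which is 1.90-fold and a log2 change of 0.92. It was the most abundant listed caspase at post-SM6, whereas at SM0 CASP8 was. The leukocyte markers given above were higher in the same library, and their part in the CASP1 difference was not tested. CASP10, a relative of CASP8 that acts at death receptors in humans and is missing from mice, had 1.59 and 0.30 TPM (log2 change -2.08). With a pseudocount of 1 its log2 change was -0.99. CASP18, a caspase found in birds and absent from placental mammals, stayed below 1 TPM, with 0.04 and 0.15 TPM.

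In the RefSeq annotation of the chicken assembly GRCg7b, CFLAR, CASP10, CASP18 and CASP8 follow each other with 0 other protein-coding genes between neighbours. These 4 genes, which share ancestry, were expressed very unevenly. CFLAR, which resembles CASP8 but is not an active protease and restrains it at death receptors, had 10.9 and 10.1 TPM, close to CASP8, whereas CASP10 and CASP18 lay below 2 TPM in both libraries. Related sequences can share reads, so the low values of CASP10 and CASP18 are uncertain. The ratio of CASP8 to CFLAR was 1.41 at SM0 and 1.44 at post-SM6.

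Among the members, BCL2L10 and MCL1 were the most abundant, and both are survival members of the BCL2 family. BCL2L10, known in chicks as NR13 and anti-apoptotic in birds, ranked first among the members in both libraries. It had 263 and 353 TPM, which is 1.34-fold and a log2 change of 0.42. MCL1, a short-lived survival protein, ranked next in both, with 238 and 286 TPM and a log2 change of 0.27. Together they made up 78.6% of the TPM of the 5 survival members at SM0 and 85.5% at post-SM6.

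Another abundant survival gene was lower at post-SM6. BCL2L1, which encodes BCL-xL, had 123 and 94.7 TPM (log2 change -0.38), and its rank among the members moved from 4 to 6. BCL2 itself was far less abundant and hardly differed, with 12.9 TPM in both libraries and a log2 change of 0.0045. BCL2A1, a survival gene of blood cells, was listed at 0 at SM0 and had 0.86 TPM at post-SM6, below the minimum of 1 TPM. No fold is given for it, and leukocyte markers were higher in the same library, as noted for CASP1.

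Genes for the proteins that open the mitochondrial membrane differed in opposite directions. BAK1 had 44.5 and 25.7 TPM (log2 change -0.79). BOK, a relative of BAK1 whose role in apoptosis is less settled, had 5.32 and 19.4 TPM, which is 3.65-fold and a log2 change of 1.85. It lay at the 96.5th percentile of all genes tested. This was the largest log2 change among the members that were higher, except with a pseudocount of 0.01, where PMAIP1 had 1.94 and BOK 1.87. BAK1 lay at the 10.7th percentile. The ratio of BAK1 to BOK, chosen after the values were seen, was 8.37 at SM0 and 1.32 at post-SM6. It does not depend on the scaling of the libraries. The summed TPM of both genes differed less, with 49.8 at SM0 and 45.1 at post-SM6. The ratio of the 5 survival members to BAK1 plus BOK was 12.8 at SM0 and 16.6 at post-SM6. Leukocyte and fibroblast markers were higher in the post-SM6 library, and their part in the BOK difference was not tested. BAX, the other main pore former of mammals, was looked for by its symbol and not found, and these ratios do not include it.

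**Figure D3:**
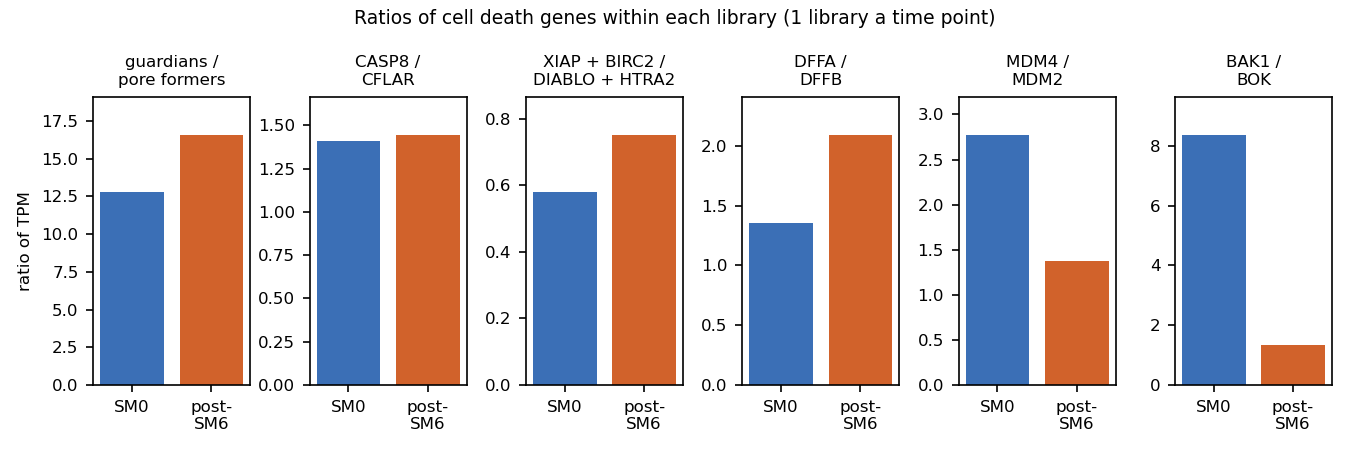
Bars from 0 give the ratio of TPM between cell death genes within each library, SM0 in blue and post-SM6 in orange, with 1 library per bar, no error bar and a separate axis for each ratio. The ratio of BAK1 to BOK (8.37 and 1.32), chosen after the values were seen, differs most between the libraries. That of CASP8 to CFLAR (1.41 and 1.44) differs least.

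BH3-only proteins sense damage and act on the other BCL2 family members. BMF, which is held at the cytoskeleton until it is released, was the most abundant of them, with 32.7 and 41.7 TPM. BID, which CASP8 cleaves to link the extrinsic to the intrinsic route, had 15.1 and 12.9 TPM, and BCL2L11, which encodes BIM, had 9.89 and 8.34 TPM. Their log2 changes, from -0.24 to 0.35, were within 1.3-fold. PMAIP1, which encodes the p53 target NOXA, had 0.51 and 1.98 TPM, which is 3.88-fold and a log2 change of 1.77. Its level is low, and with a pseudocount of 1 its log2 change was 0.98. BCL2L13, a protein of the outer mitochondrial membrane with a part in mitophagy in mammals, had 48.9 and 33.9 TPM (log2 change -0.53). It is the next protein-coding gene to BID in GRCg7b. BCL2L14 was listed at 0 in both libraries.

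Among mitochondrial proteins that act after the membrane has opened, none of those listed differed by 1.3-fold (CYCS, DIABLO, HTRA2, AIFM1 and ENDOG), and neither did APAF1, which assembles the apoptosome. CYCS, which encodes cytochrome c, held rank 3 in both libraries, with 157 and 174 TPM. APAF1 had 6.93 and 6.53 TPM, the lowest level among these genes. DIABLO, which encodes the IAP antagonist SMAC, had 34.8 and 28.9 TPM, and HTRA2, a protease that also counters IAPs, had 67.7 and 58.6 TPM. Both antagonists were lower at post-SM6, but by less than the 1.3-fold criterion (-0.26 and -0.21 on the log2 scale). AIFM1, a flavoprotein that moves to the nucleus in caspase-independent death, had 51.9 and 41.4 TPM, and ENDOG, a mitochondrial nuclease, had 31.1 and 31.9 TPM.

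The IAPs block caspases or mark proteins with ubiquitin. XIAP, the direct inhibitor of caspases, had 17.5 and 15.9 TPM (log2 change -0.14). BIRC2, a ubiquitin ligase of the TNF receptor pathway, had 41.8 and 49.8 TPM (log2 change 0.25). Neither reached 1.3-fold, and the ratio of XIAP plus BIRC2 to DIABLO plus HTRA2 was 0.579 at SM0 and 0.751 at post-SM6. For the DNA fragmentation factor, the nuclease DFFB had 7.97 and 5.79 TPM (log2 change -0.45). Its inhibitor and chaperone DFFA had 10.8 and 12.1 TPM (log2 change 0.17). The ratio of DFFA to DFFB was accordingly 1.35 at SM0 and 2.09 at post-SM6.

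Of the genes acting at death receptors, the receptor and its first adaptor were higher at post-SM6. FAS had 0.69 and 1.77 TPM (log2 change 1.24), and its log2 change with a pseudocount of 1 was 0.71. FADD, which joins FAS to CASP8, had 17.6 and 23.6 TPM (log2 change 0.42). FADD was thus 1.34-fold higher, a little past the threshold, while the receptor stayed near 1 TPM. The remaining genes were within 1.3-fold. CRADD had 8.90 and 10.5 TPM, and RIPK1, a kinase that directs signalling towards survival or necroptosis, had 16.3 and 13.0 TPM.

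Of the p53 regulators, MDM4 passed the 1.3-fold criterion and MDM2 did not. MDM4, which binds p53 and restrains its activity, had 83.7 and 39.5 TPM, which is 2.12-fold lower and a log2 change of -1.08. It lay at percentile 6.91 of all genes tested and had the largest decrease among members with a mean above 5 TPM. MDM2, the ubiquitin ligase that p53 induces and that degrades p53, had 30.2 and 28.7 TPM (log2 change -0.071). The ratio of MDM4 to MDM2 was 2.77 at SM0 and 1.37 at post-SM6. HC markers were lower in the same library, and whether the RNA of MDM4, BAK1 or BCL2L13 came from HCs was not tested.

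The listed name PERP, a membrane protein of desmosomes that p53 and p63 induce in mammals, is an older symbol of 2 chicken genes, which the tables call PERP1 and PERP2. They were not counted as members. PERP1 had 49.0 and 15.6 TPM (log2 change -1.64), and PERP2 had 35.2 and 21.4 TPM (log2 change -0.72). Both were lower, and because they are related copies, their reads may be shared between them. TP63, the p53 relative of stratified epithelia, went from 16.5 to 3.48 TPM, and its part in the PERP1 and PERP2 differences was not tested.

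The remaining members are named for programmed cell death but have other main functions. PDCD4, an inhibitor of protein synthesis, had 96.6 and 108 TPM. PDCD10, which is mutated in cerebral cavernous malformation in humans, had 83.3 and 106 TPM. Their log2 changes of 0.16 and 0.35 were within 1.3-fold.

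Further cell death genes were taken from 8 lists, chosen by function, of which 149 genes were tested. Of these, 44 were higher (29.5%, beside 23.9% of all genes) and 29 were lower (19.5%, beside 23.3%). The median log2 change of the 149 genes was 0.039. The list for recognition and clearance of dead cells supplied 16 of the 44 higher genes, from 26 tested. The same shares of all genes stand beside each list that follows, and no difference from them was tested. In the BCL2 family outside the members, 3 of 13 genes were higher (23.1%) and 1 was lower (7.69%). BCL2L15 went from 20.5 to 48.8 TPM and the mitophagy receptor BNIP3L from 314 to 204 TPM, while TMBIM6, a protein of the endoplasmic reticulum that protects from cell death, was the most abundant, with 408 and 480 TPM.

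Of the other IAPs, BIRC5 and BIRC6 were tested. BIRC5, which encodes survivin and serves mainly in mitosis, went from 2.12 to 16.2 TPM (log2 change 2.87), and BIRC6 from 18.3 to 13.5 TPM. Among other death receptors, ligands and adaptors, 5 of 26 genes were higher (19.2%) and 6 were lower (23.1%). NGFR, the p75 neurotrophin receptor, went from 1.65 to 10.4 TPM, and FAIM2, an inhibitor of FAS signalling in neurons, from 81.2 to 31.2 TPM. Neuron and glia markers and HC markers were lower in the same library, and their part in the FAIM2 difference was not tested. LITAF, the most abundant of this list at SM0, had 291 and 212 TPM.

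For p53 and its targets, 10 of 32 genes were higher (31.2%) and 6 were lower (18.8%), with a median log2 change of 0.050. GADD45G, a stress-induced growth arrest gene, had the largest increase, from 7.54 to 58.5 TPM, and BTG2, an antiproliferative p53 target, was the most abundant at post-SM6 and went from 505 to 1091 TPM. CDKN1A, the classical p53 target p21, was among the lower genes, with 93.1 and 55.7 TPM, and was named after its values were seen. In mammals JNK kinases carry aminoglycoside stress to the death machinery in HCs. Among 18 genes of the JNK and stress kinase list, 8 were lower (44.4%) and 1 was higher (5.56%), with a median log2 change of -0.37. MAPK8IP3, a scaffold of JNK, went from 25.8 to 13.0 TPM, and MAPK8, which encodes JNK1 and was named after its values were seen, from 33.3 to 22.9 TPM. The higher gene was TXNIP, the inhibitor of thioredoxin, with 51.0 and 164 TPM, while thioredoxin itself, TXN, had 2131 and 2577 TPM. HC markers and neuron and glia markers were lower in the same library, and their part in the JNK list was not tested.

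Genes of other forms of cell death were mixed, with 6 of 29 higher (20.7%) and 5 lower (17.2%). CTSB, a lysosomal protease, went from 551 to 1572 TPM, and PDCD2 from 14.7 to 7.14 TPM. The most abundant gene of this list was the lysosomal protease listed as CTSV, with 1744 and 1891 TPM.

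Among genes for the recognition and clearance of dead cells, 16 of 26 were higher (61.5%) and 2 lower (7.69%), and the median log2 change was 0.53. ELMO1, which acts in the engulfment of dead cells, went from 5.96 to 10.8 TPM. PLSCR1, a phospholipid scramblase and the most abundant gene of the list at SM0, went from 861 to 543 TPM. In this list 4 genes are also leukocyte markers, and without them 13 of 23 genes were higher and 2 lower, with a median log2 change of 0.46. Fibroblast markers were higher in the same library as well, and the part of leukocytes or fibroblasts in the other 13 was not tested.

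**Figure D4:**
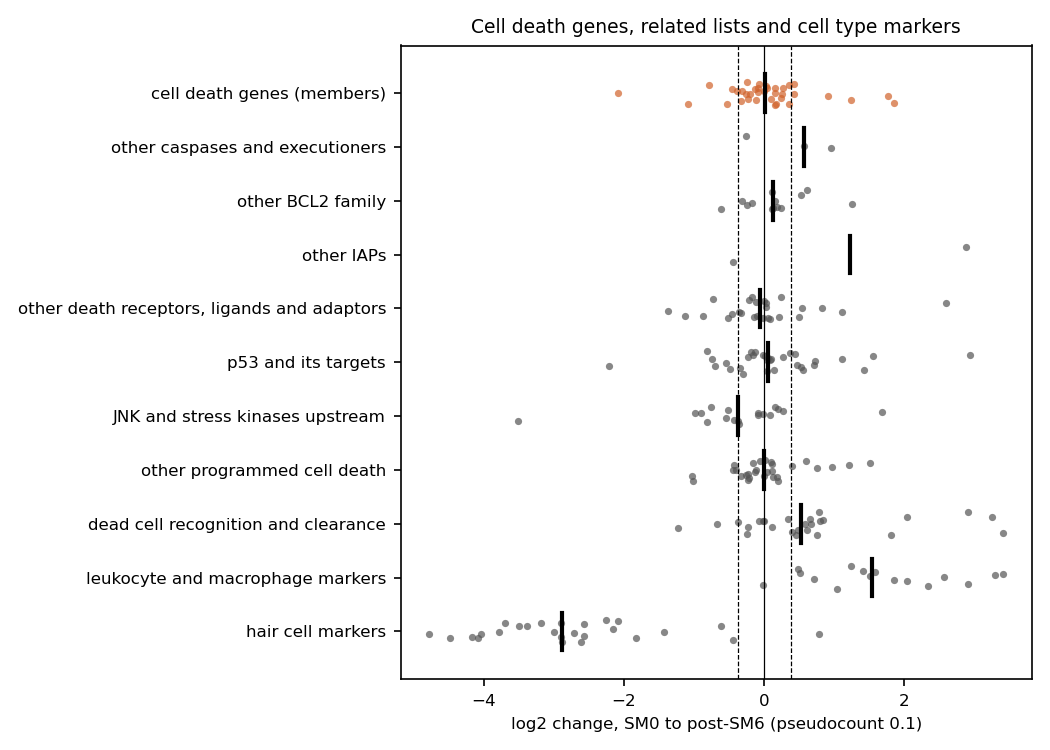
Each point is the log2 change of a gene from SM0 to post-SM6, for the cell death genes (orange), the 8 related lists and 2 marker lists (grey), with black bars at the medians and dashed lines at 1.3-fold. The cell death genes centre on 0.016, the clearance genes on 0.53, the leukocyte markers on 1.54 and the HC markers on -2.89.

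The order of the members by level was largely kept. BCL2L10, MCL1 and CYCS held ranks 1, 2 and 3 in both libraries. At least 100 TPM was reached by these genes and BCL2L1 at SM0, and by these genes, PDCD4 and PDCD10 at post-SM6. All members together held 0.164% of the library sum at SM0 and 0.174% at post-SM6. The largest move in rank was that of BOK, from 33 to 19, followed by those of CASP1, from 24 to 17, and of MDM4, BAK1 and BMF, by 5 each.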

How the data were processed

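Libraries of 2 time points were analysed, and SM24 and SM48 were not analysed here. The authors removed ribosomal RNA reads with Bowtie2 2.1.0, aligned the rest to GRCg6a with STAR 2.7.1a, estimated expression with RSEM 1.3.0 and deposited it as TPM for 23842 genes, per the labels and the study's methods. The authors called differentially expressed genes from read counts, and no count test was repeated because TPM are not counts. The deposited TPM sum to 999997 and 999999. TPM do not keep the depth, read counts were not used here, and no interval is given.

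Members were matched by symbol. Symbols of the other lists that were missing from the tables were looked up by current or older symbol in RefSeq (GRCg7b), which held all 39 member IDs and gave 5 of 159 genes found. Its coordinates are not printed. Members and lists were chosen with earlier results of these data known. All members found are named. From each further list the gene of highest TPM and, above 10 TPM, the largest rise and fall are named, and exceptions are marked. Some genes of these lists are not reported here. The ratios BAK1 to BOK and the share of BCL2L10 plus MCL1 were chosen after the values were seen. As alternatives, the pseudocount was set to 1 or 0.01, and the minimum of TPM, the fold (to 2) and the scaling of the libraries were varied. A planned comparison of protein sequences was not run. The code was tested on simulated data. Python 3.11.15, numpy 2.4.6, pandas 2.3.3 and matplotlib 3.10.9 were used.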

Additional observations from a re-analysis of the deposited data

How the results depend on the processing

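The member counts, 6 higher and 6 lower, depended on the fold, with 3 higher and 2 lower at 2-fold. At 2-fold, 16 of the 149 genes of the further lists were higher and 7 lower, beside 44 and 29 at 1.3-fold. Of all genes tested, 9.56% were higher and 7.83% lower at 2-fold, beside 23.9% and 23.3% at 1.3-fold. Under the other 7 alternatives the members numbered 4 to 8 higher and 5 or 6 lower. All genes numbered 2162 to 4683 higher and 2179 to 5134 lower, over sets that grow or shrink with the minimum of TPM. The median log2 change of the members ran from -0.0093 to 0.047. The lowest of these medians, with TPM rescaled without the 10 most abundant genes, was below 0. Scaling of post-SM6 by the median ratio over genes averaging 10 TPM or more moved the median of all genes from -0.025 to 0.0064. With this scaling 8 members were called higher and 5 lower. Of the 13321 genes tested, 3357 were then higher and 2885 lower, beside 3186 and 3107 without it. Of 36 members, 33 kept their call under this scaling, with BCL2L1, BMF and PDCD10 as the exceptions. With the other pseudocounts and with TPM rescaled without the 10 most abundant genes, 36 of 36 kept their call. No paired analysis was possible because each time point has 1 library. With 1 library of 50 pooled BPs each, biological spread cannot be given. Counting error is not given because read counts were not used here, and members under 5 TPM are the least certain.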
